A study of Mus musculus with 2 samples.

Results

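The plasminogen activation system was followed as 5 genes in single cells of mouse ovarian tumors. They were the activators Plau (urokinase, uPA) and Plat (the tissue-type activator, tPA), the urokinase receptor gene Plaur (uPAR), and the inhibitor genes Serpine2 (protease nexin-1) and Serpinb2 (PAI-2). Members were taken by gene symbol alone, and each symbol matched 1 row, so that 5 of the 32285 listed genes were followed. KPCA is a mouse ovarian cancer line of fallopian tube epithelial origin with mutant Trp53 and overexpressed Ccne1 and Akt2. Both groups carry these alterations and lack Fst, the follistatin gene. KPCA.FSTKO tumors grew from the Fst-deleted line itself. KPCA.FSTKO_hFSTL3 tumors grew from cells that also carry a human FSTL3 transgene on a pcDNA3.1 plasmid, selected as 1 stable clone for FSTL3 secretion, and human FSTL3 was not analysed here. Female C57BL/6J mice aged 12 to 16 weeks were grafted in the peritoneal cavity, and at day 10 the omental tumors of 4 animals per line were dissociated and pooled into 1 library. Clone, pool and library therefore cannot be told apart from the transgene. Without replicates no test could be run, and each interval below is a 95% interval for counting error alone.

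Plasminogen is a circulating zymogen made mainly by the liver. Its activators cut it into plasmin, a protease that dissolves fibrin and activates other matrix proteases. Urokinase works at the cell surface, held there by its receptor, whereas tPA is best known for its work on fibrin clots and in the nervous system. The serpins PAI-2 and protease nexin-1 trap the activators, and protease nexin-1 also inhibits thrombin. In tumors the receptor and the inhibitors are often found on cells other than those that make the activators, which is the question put to these libraries: which cells carried the transcripts of the activators, the receptor and the inhibitors, and how did the levels compare between the 2 lines?

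The KPCA.FSTKO library held 7582 barcodes and the KPCA.FSTKO_hFSTL3 library 4244, of which 6777 and 4041 passed the filters on mitochondrial share and gene number. Median depth was 17253 and 15071 unique molecular identifiers (UMIs) per kept barcode, and 10 kept barcode sequences occurred in both libraries. Classes were gated by marker genes, and a barcode that also reached the limit of an unrelated marker list was left out of every class. The KPCA.FSTKO_hFSTL3 library stood apart. In it 2809 of 4041 barcodes (69.5%) reached the limits of the cancer, macrophage and erythroid lists at once, against 18 of 6777 (0.266%) in the KPCA.FSTKO library. These mixed-profile barcodes had a median mitochondrial share of 11.9%, against 3.13% in the cancer-like barcodes of the same library. Pancreatic acinar genes were found at a median of 91.3 per 10000 UMIs in them and still at 6.00 in the cancer-like barcodes of that library, against 0.207 in those of KPCA.FSTKO. The part of this shared RNA in the values below was not tested, and mixed-profile values are given separately. Cancer-like barcodes numbered 3799 and 297, macrophage-like 778 and 137, and fibroblast-like 351 and 68 in KPCA.FSTKO and KPCA.FSTKO_hFSTL3. Among the cancer-like barcodes 308 and 27 lay within 1.5 times of the gate minimum. KPCA.FSTKO further gave 83 neutrophil-like, 63 T and NK-like, 61 endothelial-like and 58 erythroid-like barcodes, and smaller gates are named with their size. Ungated barcodes, which fell in no gate and were not mixed-profile, numbered 1472 (21.7%) in KPCA.FSTKO and 661 (16.4%) in KPCA.FSTKO_hFSTL3. Fst, deleted in the grafted cells, gave 558 UMIs in 370 of 3799 and 84 UMIs in 46 of 297 cancer-like barcodes (5.10 and 8.62 CPM), against 123 and 174 CPM in the fibroblast-like host cells. Reads from the 3′ end check the deletion only if it removes that end, which the sources used here do not state. By qPCR the authors reported a complete loss of Fst expression in both cell lines. Doublets were not called.

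By the GENCODE M21 annotation of GRCm38, Plau lies on chromosome 14 from 20836660 to 20843385 on the plus strand and Plat on chromosome 8 from 22757727 to 22782844 on the plus strand. Plaur lies on chromosome 7 from 24462484 to 24475968 on the plus strand. Serpine2 and Serpinb2 share chromosome 1 but not a neighbourhood, at 79794197 to 79861180 on the minus strand and at 107511423 to 107535478 on the plus strand. Serpinb2 overlaps Serpinb10 on the same strand, so its reads are less certainly its own, while the other 4 members overlap no annotated gene. UMIs were counted per gene, and transcripts of 1 gene were not told apart.

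RefSeq's promoter table for GRCm38.p6 held 3 of the 5 members, Plaur, Serpine2 and Serpinb2. Their proximal promoters are shown because these genes had 3 separate patterns over the cell classes, and because their base composition differed widely. Each run reads 5′ to 3′ on the gene's own strand and stops before the first annotated exon base of the gene in its window. Capitals mark AP-1 type matches (TGANTCA, which reads alike on both strands) and TATA matches (TATAAA, sense strand), and in Serpine2 also GC boxes (GGGCGG, either strand).

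Plaur, chr7:24462233-24462482, plus strand, 250 bases: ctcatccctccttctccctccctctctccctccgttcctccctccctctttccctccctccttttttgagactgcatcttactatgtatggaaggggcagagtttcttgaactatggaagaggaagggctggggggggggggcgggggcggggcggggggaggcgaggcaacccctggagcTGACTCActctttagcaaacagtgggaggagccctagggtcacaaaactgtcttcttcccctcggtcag

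Serpine2, chr1:79858697-79858915, minus strand, 219 bases: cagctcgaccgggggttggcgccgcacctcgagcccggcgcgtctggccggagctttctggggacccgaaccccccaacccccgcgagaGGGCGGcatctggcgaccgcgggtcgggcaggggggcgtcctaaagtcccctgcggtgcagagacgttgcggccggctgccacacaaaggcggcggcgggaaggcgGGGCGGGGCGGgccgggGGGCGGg

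Serpinb2, chr1:107511173-107511422, plus strand, 250 bases: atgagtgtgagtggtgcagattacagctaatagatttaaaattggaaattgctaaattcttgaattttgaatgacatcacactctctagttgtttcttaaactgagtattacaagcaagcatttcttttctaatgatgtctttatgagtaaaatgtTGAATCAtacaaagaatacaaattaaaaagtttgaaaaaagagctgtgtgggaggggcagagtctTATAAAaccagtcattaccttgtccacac

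The Plaur run was 59.6% G or C and held 1 AP-1 match, TGACTCA, which starts 69 bases before the RefSeq start, and 3 GC boxes between 111 and 100 bases before it, left in lower case. The Serpine2 run was 77.6% G or C and held 4 GC boxes, some of which share bases, and neither of the other motifs. It lies inside the annotated gene, since 1 coding transcript starts farther upstream. The Serpinb2 run was 32.4% G or C and held 1 AP-1 match, TGAATCA, 94 bases before the start and 1 TATA match 29 bases before it, without a GC box. No marked AP-1 or TATA match shares bases with another motif. Among 27025 promoters of 250 bases, 6.87% held an AP-1 match, 32.9% a GC box and 8.12% a TATA match. These matches describe letters in a window and say nothing about binding.

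Levels are given as CPM, the UMIs of a gene summed over the barcodes of a class for each 1000000 UMIs of any gene in them. The activators were mainly stromal by level. Plau, the urokinase gene, was low in every class, and was highest among classes of at least 50 barcodes in fibroblast-like cells. Its level in KPCA.FSTKO was 30.6 CPM (26.6 to 35.2) in fibroblast-like, 11.7 CPM (9.74 to 13.9) in macrophage-like and 4.00 CPM (3.63 to 4.39) in cancer-like barcodes, 3 levels whose intervals did not overlap. The endothelial-like level of 5.95 CPM (1.62 to 15.2) overlapped both of the lower classes. The ungated barcodes of KPCA.FSTKO held 13.7 CPM (11.8 to 15.9), which was 18.4% of all kept Plau UMIs of that library. In KPCA.FSTKO_hFSTL3 fibroblast-like and macrophage-like levels, 18.1 CPM (12.3 to 25.6) and 15.6 CPM (11.2 to 21.3), could not be separated by counting error, and both lay above the cancer-like level of 1.95 CPM (1.17 to 3.05). Erythroid-like barcodes, which should lack these genes, held 0 Plau UMIs in KPCA.FSTKO, and a floor of 3 counts lies at 10.5 CPM at their depth. Erythroid marker genes made up 822366 of each 1000000 UMIs in that class. This lowers the CPM of every other gene there, so its levels and limits are not on the scale of the other classes. In KPCA.FSTKO a Plau UMI was found in 31.9% (27.1 to 37.1) of fibroblast-like and 8.50% (7.63 to 9.43) of cancer-like barcodes at median depths of 17647 and 27272 UMIs. After thinning to 1000 UMIs per barcode the shares were 2.56% and 0.400%, with 0 and 47 barcodes left out as too shallow.

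Plat, the tPA gene, was the more widely detected activator and was carried by fibroblast-like and cancer-like cells. In KPCA.FSTKO it reached 899 CPM (876 to 922) in fibroblast-like barcodes and 163 CPM (161 to 166) in cancer-like barcodes, a ratio of 5.50 (5.34 to 5.66). In KPCA.FSTKO_hFSTL3 the same classes held 759 CPM (718 to 801) and 72.4 CPM (67.1 to 77.9), a ratio of 10.5 (9.56 to 11.5). The 16 pericyte-like barcodes of KPCA.FSTKO, cells that wrap small vessels, held 800 CPM (688 to 925), which overlaps the fibroblast-like level. Plat was detected in 95.4% (92.7 to 97.4) of fibroblast-like and 74.7% (73.3 to 76.1) of cancer-like barcodes of KPCA.FSTKO, and in 49.3% and 13.8% after thinning. Blood-derived cells were low. Macrophage-like barcodes held 13.3 CPM (11.2 to 15.7) in KPCA.FSTKO, and erythroid-like barcodes 24.5 CPM (9.84 to 50.4). Erythroid marker genes fill most of the erythroid-like total, so these levels cannot be set against each other. Whether the macrophage-like level is background was not tested. A Plat UMI was found in 12.7% (10.5 to 15.3) of macrophage-like and 8.62% (2.86 to 19.0) of erythroid-like barcodes at median depths of 12996 and 4419.5 UMIs. Endothelial cells are a classical source of tPA, yet the endothelial-like level of 52.0 CPM (36.2 to 72.4) was below the cancer-like level in KPCA.FSTKO. By their number the cancer-like barcodes still held 66.7% of all kept Plat UMIs of that library, and the fibroblast-like barcodes, 5.18% of the barcodes, held 22.3%.

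**Figure D1:**
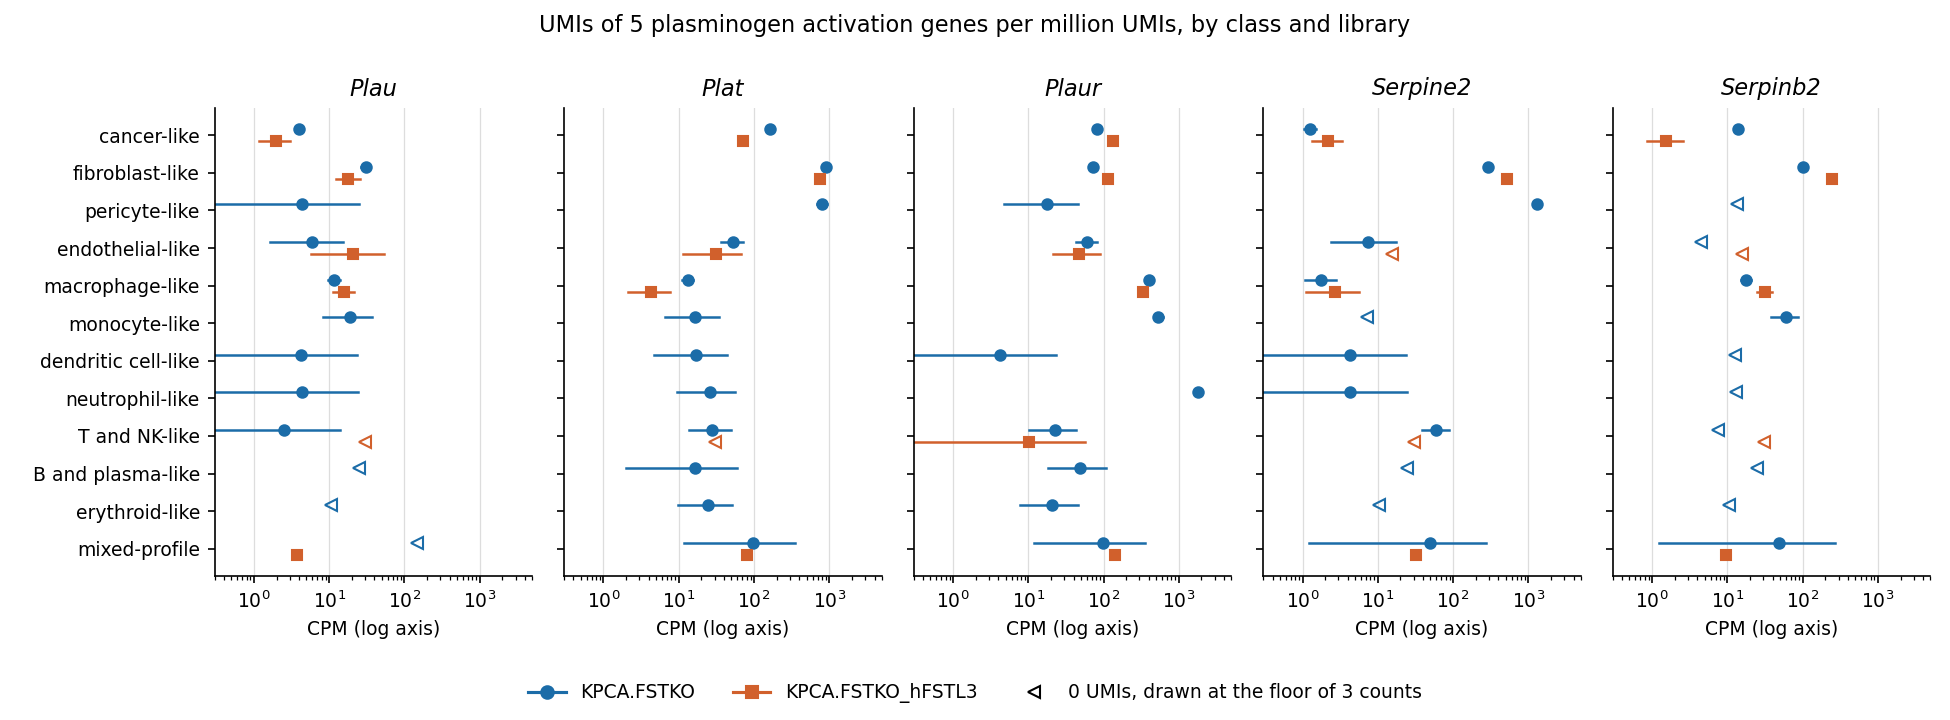
Summed UMIs of each member for each 1000000 UMIs of a class (CPM, log axis) for classes of at least 10 barcodes other than acinar-like, with KPCA.FSTKO as circles and KPCA.FSTKO_hFSTL3 as squares. Bars are 95% Poisson intervals, cut off at the left edge where they run past it, and open triangles are counts of 0 drawn at the floor of 3 counts. Plat is highest in fibroblast-like and pericyte-like cells, Plaur in neutrophil-like, monocyte-like and macrophage-like cells, and Serpine2 in pericyte-like and fibroblast-like cells.

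The receptor gene was highest in neutrophil-like, monocyte-like and macrophage-like cells. Plaur encodes the anchor that holds urokinase on leukocytes and migrating cells. In KPCA.FSTKO it reached 1789 CPM (1621 to 1971) in neutrophil-like, 536 CPM (469 to 611) in the 41 monocyte-like and 402 CPM (390 to 414) in macrophage-like barcodes, in that order without overlap. Cancer-like barcodes held 81.8 CPM (80.1 to 83.5) and fibroblast-like barcodes 72.9 CPM (66.5 to 79.7), a ratio of fibroblast-like over cancer-like of 0.891 (0.812 to 0.977). The endothelial-like level of 61.0 CPM (43.7 to 82.7) could not be separated from either. T and NK-like barcodes held 22.4 CPM (10.2 to 42.5) and erythroid-like barcodes 21.0 CPM (7.70 to 45.6). The erythroid-like value is lowered by the erythroid marker genes, so it does not set a background for the other classes. The dendritic cell-like barcodes, also of myeloid kind, held only 1 Plaur UMI in 20 barcodes, 4.26 CPM (0.108 to 23.7). In KPCA.FSTKO_hFSTL3 the order of the 3 larger classes was macrophage-like at 334 CPM (312 to 357), cancer-like at 134 CPM (127 to 142) and fibroblast-like at 114 CPM (98.2 to 131), the last 2 with overlapping intervals. Its 9 monocyte-like barcodes held 641 CPM (502 to 807).

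Plaur was also the member found in most myeloid barcodes. A Plaur UMI was found in 83.3% (80.5 to 85.8) of macrophage-like and 73.5% (62.7 to 82.6) of neutrophil-like barcodes of KPCA.FSTKO, at median depths of 12996 and 2701 UMIs. Thinned to 1000 UMIs the order turned, to 27.7% and 59.8%, with 1 shallow barcode left out of each. The share in erythroid-like barcodes was 6.90% (1.91 to 16.7) as deposited. Of the cancer-like barcodes of KPCA.FSTKO 65.3% (63.7 to 66.8) held one, as did 64.3% (58.6 to 69.8) of those of KPCA.FSTKO_hFSTL3, and the shares were 7.28% and 10.2% after thinning. Immediate early and heat shock genes, which respond to tissue dissociation, summed over 10 genes to 14355 CPM in the neutrophil-like, 4031 CPM in the macrophage-like and 3260 CPM in the cancer-like barcodes of KPCA.FSTKO. Their part in the Plaur level was not tested.

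The inhibitors differed from each other in where they were found. Serpine2, whose product blocks urokinase, tPA and thrombin, was highest in the stromal classes, fibroblast-like and pericyte-like. In KPCA.FSTKO it reached 293 CPM (280 to 306) in fibroblast-like barcodes and 1286 CPM (1143 to 1443) in the 16 pericyte-like barcodes, 15 of which held a UMI. Cancer-like and macrophage-like barcodes held 1.26 CPM (1.06 to 1.49) and 1.78 CPM (1.07 to 2.78), so that the fibroblast-like level was 232 times (195 to 278) the cancer-like one. With barcodes that pass the cancer gate and another gate added to the cancer-like class, the log2 ratio was 5.93 in place of 7.86, and it was 6.70 with every barcode weighted equally. In KPCA.FSTKO_hFSTL3 the fibroblast-like level was 514 CPM (481 to 549), 239 times (155 to 387) the cancer-like 2.16 CPM (1.33 to 3.30). Among blood-derived classes Serpine2 was found at 59.7 CPM (38.3 to 88.9) in the T and NK-like barcodes of KPCA.FSTKO, 24 UMIs in 10 of 63 barcodes. It was found as 1 UMI in the 83 neutrophil-like barcodes and as 0 UMIs in the erythroid-like barcodes. The ungated barcodes of KPCA.FSTKO held 81.4 CPM (76.5 to 86.5), which was 30.0% of all kept Serpine2 UMIs of that library. Of these 1044 UMIs 185 lay in 1 barcode. A Serpine2 UMI was found in 36.2% (31.1 to 41.5) of fibroblast-like and 2.50% (2.03 to 3.05) of cancer-like barcodes of KPCA.FSTKO, and in 16% and 0.24% after thinning.

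Serpinb2, which encodes a largely intracellular inhibitor of urokinase and tPA, was found in fibroblast-like, macrophage-like and cancer-like cells, each time in a minority of barcodes. In KPCA.FSTKO it stood at 101 CPM (93.3 to 109) in fibroblast-like, 17.6 CPM (15.2 to 20.3) in macrophage-like and 14.0 CPM (13.3 to 14.8) in cancer-like barcodes. No Serpinb2 UMI was found in the neutrophil-like, T and NK-like, endothelial-like, pericyte-like or erythroid-like barcodes of that library. There the floor of 3 counts lies at 13, 7.47, 4.46, 13.3 and 10.5 CPM. The 5% of fibroblast-like barcodes with most of it, 18 barcodes, held 88.5% of its UMIs, and 1 barcode held 140 of 671. In macrophage-like barcodes all 188 UMIs were in 29 of 778 barcodes. Without the top 5% of barcodes of each class the log2 ratio of fibroblast-like over cancer-like cells was 1.21 in place of 2.85, and with stricter gates it was 2.08. A Serpinb2 UMI was found in 16.9% (15.7 to 18.1) of cancer-like and 15.7% (12 to 19.9) of fibroblast-like barcodes of KPCA.FSTKO, and in 1.23% and 3.13% after thinning.

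**Figure D2:**
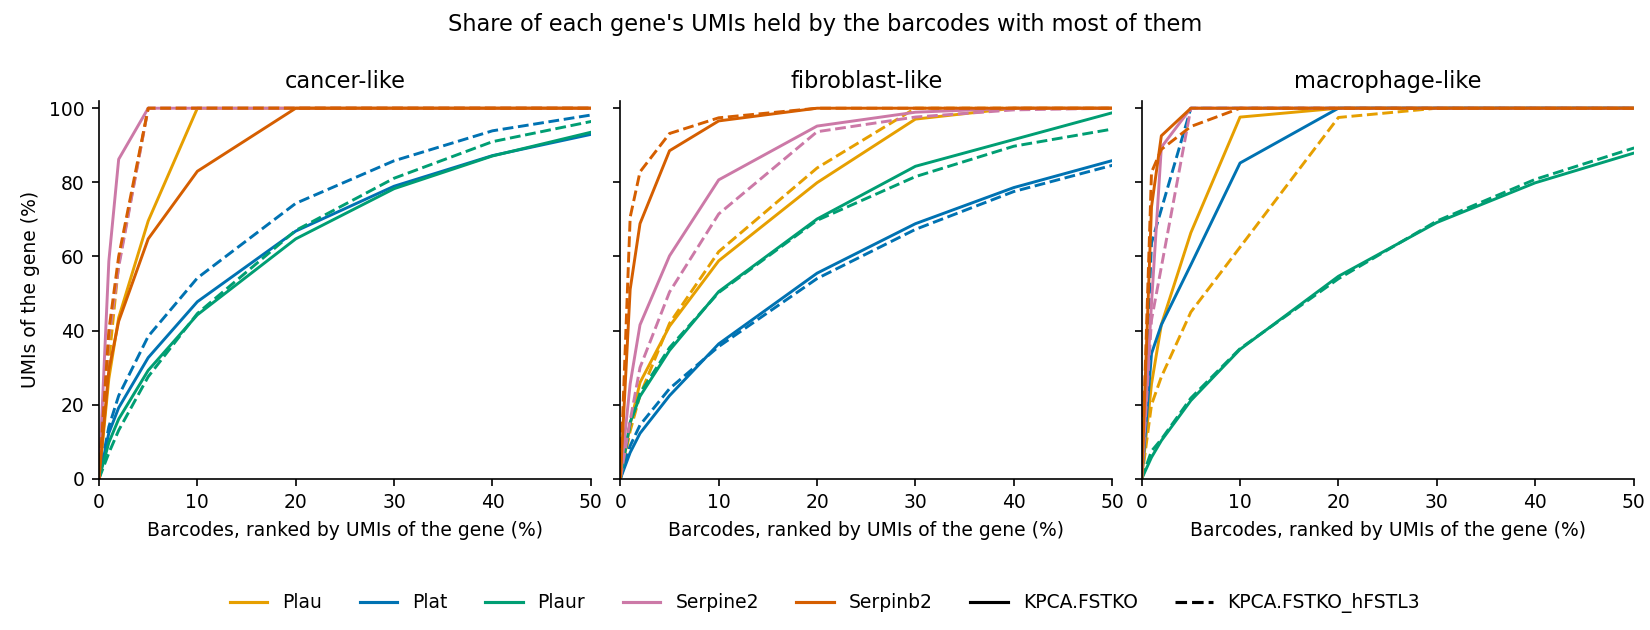
Cumulative share of a member's UMIs (vertical axis, %) held by the barcodes with most of them (horizontal axis, % of the barcodes of the class, shown to 50%), with KPCA.FSTKO as solid and KPCA.FSTKO_hFSTL3 as dashed lines. Plat and Plaur spread over many fibroblast-like barcodes, whereas 88.5% of the Serpinb2 UMIs of KPCA.FSTKO lie in 5% of them. Curves of genes with few UMIs rise early for that reason alone.

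The spread within the stroma was described by splitting the fibroblast-like barcodes on Postn, the gene of periostin, a matrix protein of activated fibroblasts. Barcodes above the 75th percentile of Postn were called high and those at or below the median low. Postn is 1 of the 12 genes of the fibroblast gate, and all splits were chosen after the values were seen. Serpine2 and Serpinb2 lay on opposite sides. In KPCA.FSTKO Serpine2 was at 960 CPM (913 to 1009) in the 88 Postn-high and 54.1 CPM (46.9 to 62.0) in the 207 Postn-low barcodes, a ratio of 17.8 (15.3 to 20.6). Serpinb2 was at 3.07 CPM (0.996 to 7.16) and 125 CPM (114 to 136), a ratio of 0.0246 (0.00795 to 0.0578). In KPCA.FSTKO_hFSTL3 the Serpine2 ratio was 49.6 (36.6 to 68.8) over 17 and 40 barcodes, with 2220 and 44.8 CPM. There Serpinb2 was at 0 UMIs in the Postn-high barcodes and 402 UMIs in the Postn-low ones, 300 of them in 1 barcode. Plat, in contrast, was spread over both sides, at 741 CPM (700 to 784) and 888 CPM (858 to 919) in KPCA.FSTKO. Both inhibitors were found together in 15 of the 351 fibroblast-like barcodes of KPCA.FSTKO, in which 127 held Serpine2 and 55 held Serpinb2, that is 11.8% of the first and 27.3% of the second, while 15.7% of the whole class held Serpinb2 and 36.2% held Serpine2. In KPCA.FSTKO_hFSTL3 it was 4 of 68, in which 32 and 14 held them.

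Mesothelial and contractile markers split the fibroblast-like barcodes in another way. The cancer list includes Krt19 and Msln, which the authors used as mesothelial markers. Barcodes that reached the limit of that list were outside the fibroblast-like class. The mesothelial group is therefore fibroblast-like barcodes with some mesothelial transcripts, and not the lining cells of the peritoneum as a whole. The 31 KPCA.FSTKO barcodes with at least 4 UMIs of mesothelial markers per 10000 held 413 CPM (364 to 467) of Serpinb2 and 29.2 CPM (17.3 to 46.1) of Serpine2. Serpinb2 was detected in 12 of them, and without the 1 barcode with most of it the level was 280.3 CPM. The 89 barcodes with at least 15 UMIs of smooth muscle markers per 10000, myofibroblast-like cells, held 16.3 CPM (11 to 23.1) of Serpinb2, 28 of 31 UMIs in 1 barcode, and 298 CPM (274 to 324) of Serpine2. Plat was detected in all 89 of them, at 1104 CPM (1058 to 1153), against 794 CPM (725 to 868) in the mesothelial and 820 CPM (792 to 848) in the remaining 231 barcodes. In KPCA.FSTKO_hFSTL3 the contrast for Serpinb2 was not seen, with 202 CPM (155 to 259) in 12 mesothelial barcodes and 350.0 CPM (313 to 390) in 34 contractile ones, or 35.1 and 28.9 CPM without the top barcode of each.

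Within the cancer-like cells urokinase and its receptor were arranged in opposite directions over the keratin gene Krt19, an epithelial marker and 1 of the 12 genes of the cancer gate. In KPCA.FSTKO Plaur was at 116 CPM (113 to 120) in the 950 Krt19-high and 55.4 CPM (53.3 to 57.6) in the 1900 Krt19-low barcodes, a ratio of 2.10 (2.00 to 2.21). Plau was at 0.930 CPM (0.628 to 1.33) and 6.89 CPM (6.16 to 7.68), a ratio of 0.135 (0.0897 to 0.197). Both directions were also found in KPCA.FSTKO_hFSTL3, where the Plaur ratio was 2.21 (1.94 to 2.52) over 74 and 149 barcodes and the Plau ratio 0.124 (0.00291 to 0.825) on 1 and 13 UMIs. Plat hardly differed on this split, with ratios of 1.04 (1.00 to 1.07) and 0.860 (0.710 to 1.04).

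Over Zeb1, which encodes a repressor of epithelial genes, both activators and both inhibitors were higher in the high group of KPCA.FSTKO. Serpine2 had a ratio of 2.74 (1.72 to 4.39) on 45 and 35 UMIs and Serpinb2 one of 1.45 (1.28 to 1.64). In KPCA.FSTKO_hFSTL3 Serpine2 had 9 and 9 UMIs, a ratio of 1.15 (0.404 to 3.26), and Serpinb2 6 and 2 UMIs. The same members were higher in fibroblast-like than in cancer-like cells, and the part of fibroblast transcripts in this split was not tested. The Plat level of KPCA.FSTKO was 229 CPM (223 to 235) in Zeb1-high against 124 CPM (121 to 127) in Zeb1-low barcodes, and the ratio of 1.85 (1.78 to 1.91) was 2.17 (1.77 to 2.66) in KPCA.FSTKO_hFSTL3. The Plau levels in KPCA.FSTKO were 7.72 CPM (6.66 to 8.90) against 2.48 CPM (2.07 to 2.94), and the ratio rested on 6 and 3 UMIs in KPCA.FSTKO_hFSTL3. Plaur was lower in the Zeb1-high barcodes of both libraries, with ratios of 0.725 (0.685 to 0.767) and 0.804 (0.694 to 0.931). Plau and Plaur were found in the same cancer-like barcode 224 times in KPCA.FSTKO, which is 69.3% of the 323 barcodes with Plau, while 65.3% of all cancer-like barcodes held Plaur.

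Macrophage-like cells split for the receptor and Serpinb2. Plaur was higher where Vegfa, a gene induced by low oxygen, was high. In KPCA.FSTKO it was at 543 CPM (515 to 573) in 195 Vegfa-high and 314 CPM (299 to 330) in 389 Vegfa-low barcodes, a ratio of 1.73 (1.61 to 1.86), and in KPCA.FSTKO_hFSTL3 the ratio was 2.50 (2.09 to 3) over 34 and 69 barcodes. Serpinb2 was lower in the Vegfa-high barcodes of KPCA.FSTKO, a ratio of 0.0967 (0.0382 to 0.204) on 7 and 150 UMIs, with 2 and 8 UMIs in KPCA.FSTKO_hFSTL3. Serpinb2 was nearly confined to barcodes low in C1qa, a complement gene of mature tumor macrophages that is part of the gate, with 182 UMIs in the C1qa-low and 4 in the C1qa-high barcodes of KPCA.FSTKO. In KPCA.FSTKO_hFSTL3 it was 81 and 0 UMIs. Without the top barcode the C1qa-low level was 29.6 CPM in KPCA.FSTKO and 27.9 CPM in KPCA.FSTKO_hFSTL3, in place of 33.7 and 63.4 CPM.

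**Figure D3:**
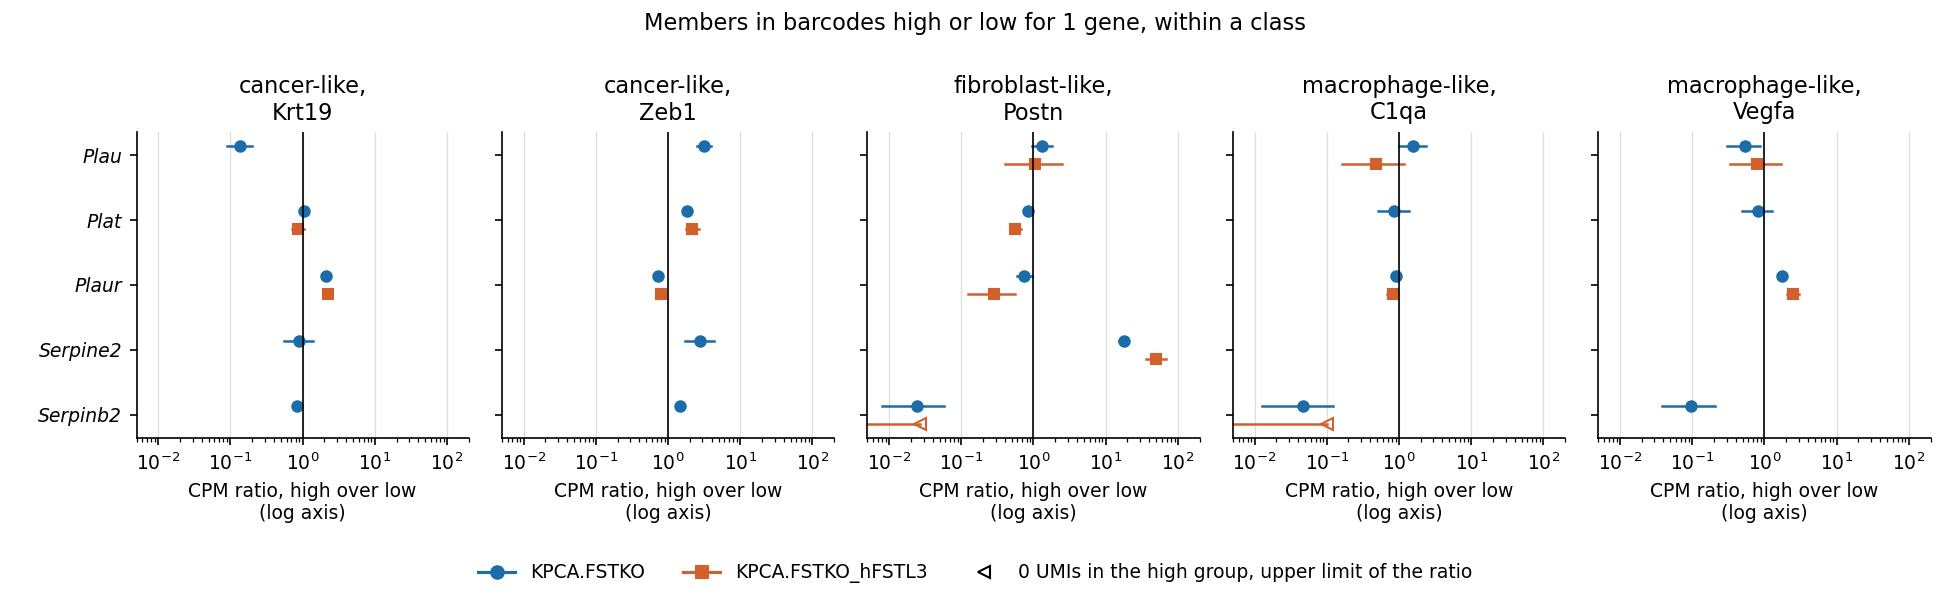
Ratio of each member's CPM in barcodes high over low for the gene in the panel title (log axis), with KPCA.FSTKO as circles and KPCA.FSTKO_hFSTL3 as squares. Bars are 95% conditional binomial intervals and ratios resting on fewer than 20 UMIs are left out. Serpine2 lies right of 1 and Serpinb2 left of 1 on the Postn split in both libraries, and Plau lies left and Plaur right of 1 on the Krt19 split.

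The 2 libraries were then set side by side within each class, as the ratio of KPCA.FSTKO_hFSTL3 over KPCA.FSTKO. In cancer-like cells 3 of 5 members were at least 2-fold lower and none 2-fold higher, where 9.98% of the 13002 genes with at least 100 UMIs were 2-fold apart, 416 higher and 881 lower. Serpinb2 was the farthest apart, at 1.54 CPM (0.862 to 2.54) in KPCA.FSTKO_hFSTL3 and 14.0 CPM in KPCA.FSTKO, a log2 ratio of -3.19 (-4.03 to -2.46) on 15 and 1534 UMIs. Plat had a log2 ratio of -1.18 (-1.29 to -1.07) on 705 and 17868 UMIs. Plau had a log2 ratio of -1.03 (-1.78 to -0.37) on 19 and 437 UMIs, which was under 2-fold with stricter gates (-0.67) and with looser gates (-0.85). Plaur was higher by 0.71 (0.63 to 0.80) on 1307 and 8939 UMIs. Serpine2 had a log2 ratio of 0.77 (0.04 to 1.44) on 21 and 138 UMIs, and this direction turned to -0.74 with stricter gates, where 5 UMIs were left in KPCA.FSTKO_hFSTL3. The median log2 ratio of all genes compared was -0.01. The 10 immediate early and heat shock genes summed to 2099 CPM in KPCA.FSTKO_hFSTL3 and 3260 CPM in KPCA.FSTKO cancer-like barcodes, with a median log2 ratio of -0.55, and their part in these ratios was not tested. Fibroblast markers moved the same way as the 3 lower members, all of which were higher in fibroblast-like than in cancer-like cells. Serpine2, also higher in fibroblast-like cells, went the other way with its log2 ratio of 0.77. The 12 fibroblast markers had a median of 0.848 per 10000 UMIs and a summed level of 413 CPM in the cancer-like barcodes of KPCA.FSTKO_hFSTL3, against 3.79 and 741 CPM in those of KPCA.FSTKO, with none at 0, and their part was not tested either.

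The mixed-profile barcodes bear on this comparison, since 2809 of them and only 297 cancer-like barcodes came from KPCA.FSTKO_hFSTL3. They held 81.2 CPM (78.8 to 83.7) of Plat and 144 CPM (140.4 to 147) of Plaur, against 72.4 and 134 CPM in the cancer-like barcodes of their library. They held 9.69 CPM (8.85 to 10.6) of Serpinb2 and 32.2 CPM (30.7 to 33.8) of Serpine2, both above the cancer-like levels. Counting every barcode that passes the cancer gate as cancer-like, mixed-profile ones included, gave log2 ratios of -1.07 for Plat, 0.77 for Plaur, -0.41 for Plau, -0.79 for Serpinb2 and 2.52 for Serpine2. The ratios of Plau, Serpinb2 and Serpine2 thus moved by more than 1.5 times with the treatment of these barcodes, and those of Plat and Plaur did not.

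In fibroblast-like cells 1 of 5 members, Serpinb2, was 2-fold apart between the libraries, where 3.3% of 8216 genes were. It was at 248 CPM (225 to 272) in KPCA.FSTKO_hFSTL3 and 101 CPM in KPCA.FSTKO, a log2 ratio of 1.30 (1.12 to 1.47). A single barcode held 300 of the 425 UMIs in KPCA.FSTKO_hFSTL3, or 70.6%, and without the top barcode of each library the log2 ratio was -0.08 (-0.38 to 0.20). Serpine2 was higher by 0.81 (0.70 to 0.93) and Plaur by 0.64 (0.39 to 0.88). Plat had a log2 ratio of -0.24 (-0.33 to -0.16) and Plau one of -0.76 (-1.36 to -0.21). Smooth muscle markers moved with this comparison, at a median of 16.8 per 10000 UMIs in the fibroblast-like barcodes of KPCA.FSTKO_hFSTL3 and 6.61 in those of KPCA.FSTKO. The 6 pericyte markers summed to 483 CPM and 105 CPM, none at 0, with medians of 0.336 and 0.402 per 10000 UMIs, and pericyte-like cells had the highest Serpine2 level of KPCA.FSTKO. The part of either list was not tested.

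In macrophage-like cells 1 of the 4 members with at least 100 UMIs was 2-fold apart, where 2.97% of 8640 genes were. This was Plat, at 4.30 CPM (2.15 to 7.69) and 13.3 CPM, on 11 and 142 UMIs, and the part of background in these low levels was not tested. Plaur had a log2 ratio of -0.27 (-0.38 to -0.16), opposite in sign to its ratio in cancer-like and fibroblast-like cells. The 4 monocyte markers were lower too, at 1180 CPM in sum against 3224 CPM, none at 0, and the 10 immediate early and heat shock genes had a median log2 ratio of -0.26. Their part in the Plaur ratio was not tested. Serpinb2 had a log2 ratio of 0.85 (0.45 to 1.23), with 46 of its 81 UMIs in 1 barcode of KPCA.FSTKO_hFSTL3, and without the top barcode of each library the direction turned, to -0.16 (-0.73 to 0.37). Plau had a log2 ratio of 0.42 (-0.13 to 0.94).

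**Figure D4:**
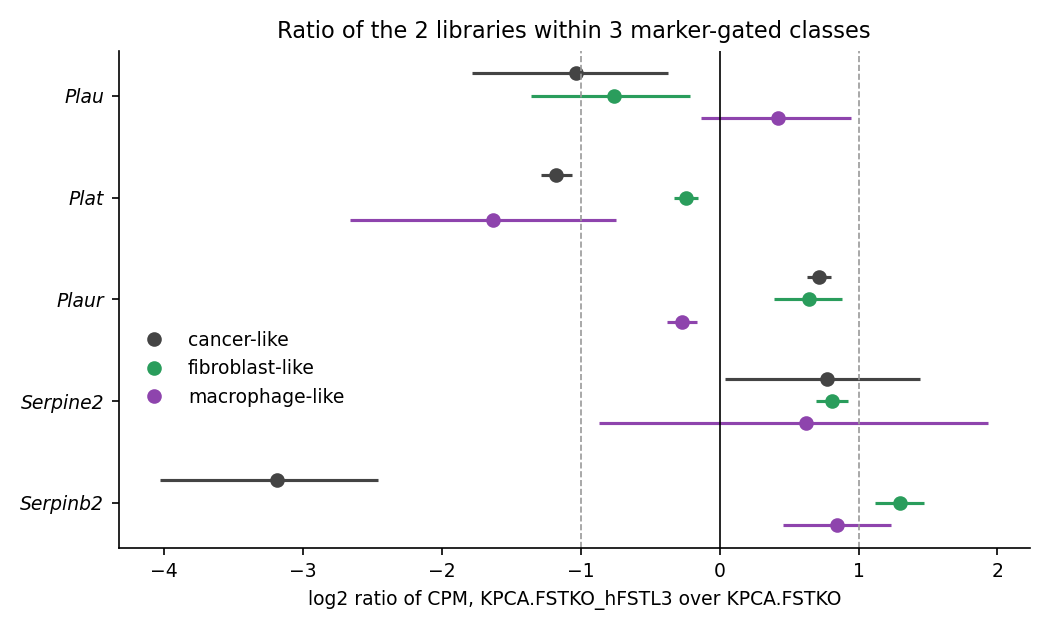
Log2 ratio of CPM in KPCA.FSTKO_hFSTL3 over KPCA.FSTKO for each member in cancer-like, fibroblast-like and macrophage-like barcodes. Bars are 95% conditional binomial intervals and dashed lines mark 2-fold. Serpinb2 lies at -3.19 in cancer-like and at 1.30 in fibroblast-like barcodes, and Plaur lies above 0 in these classes and at -0.27 in macrophage-like ones.

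By class, the members were also counted in fibroblast-like over cancer-like cells of both libraries. The members were chosen with earlier results of these data known, so these counts are a description. Of the 5 members 4 were at least 2-fold higher in fibroblast-like cells of KPCA.FSTKO and none lower. There 32.3% of 13291 genes were 2-fold apart either way, 1905 higher and 2392 lower. In KPCA.FSTKO_hFSTL3 it was 3 of the 4 members with enough UMIs, where 27.7% of 9008 genes were 2-fold apart, 1129 higher and 1365 lower. Plaur was the member within 2-fold in both. In macrophage-like over cancer-like cells of KPCA.FSTKO, Plaur (ratio 4.92, 4.74 to 5.10) and Plau (2.93, 2.38 to 3.58) were higher and Plat was lower (0.0813, 0.0685 to 0.0960), 3 of 5 members where 48.3% of 13464 genes were 2-fold apart. In KPCA.FSTKO_hFSTL3 both members with enough UMIs were, Plaur higher and Plat lower, where 42.8% of 9299 genes were. The shares for macrophage-like cells are high among all genes, so the counts of members say little there beyond the values.

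The rest of the pathway was read from 13 further genes. Plasminogen itself, Plg, was at 0 UMIs in both libraries, 0 of 10818 barcodes, where a floor of 3 barcodes would be 0.0277%. This does not limit the share of cells that express Plg. Other secreted regulators were rare, with 16 and 5 UMIs of Serpinf2 (alpha-2-antiplasmin), 10 and 4 of Cpb2 (a carboxypeptidase that slows clot lysis) and 1 and 1 of Serpina5 in KPCA.FSTKO and KPCA.FSTKO_hFSTL3. Vtn, which encodes vitronectin, gave 30 and 58 UMIs in 20 and 54 barcodes. St14, which encodes the membrane protease matriptase, gave 75 and 28 UMIs, Serpini1, which encodes neuroserpin, 332 and 141, and Plgrkt, which encodes a plasminogen receptor, 10495 and 4538. The cell-surface plasminogen binders S100a10 and Anxa2 were higher in cancer-like than in fibroblast-like and macrophage-like cells. S100a10, whose product docks plasminogen and tPA, stood at 2471 CPM in cancer-like against 666 CPM in fibroblast-like and 743 CPM in macrophage-like barcodes of KPCA.FSTKO, and its partner Anxa2 at 1243, 426 and 532 CPM. Lrp1, a scavenger receptor that clears activator-inhibitor complexes, was at 731 CPM in fibroblast-like, 426 CPM in macrophage-like and 162 CPM in cancer-like barcodes. Mrc2, which encodes a collagen receptor that can associate with the urokinase receptor, was at 157 CPM in fibroblast-like barcodes and at 1.4 CPM in cancer-like ones.

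Between the libraries 7 of the 13 pathway genes had enough UMIs in cancer-like cells, and 1 was 2-fold apart, where 9.98% of 13002 genes were. This was Mrc2, higher at 4.72 against 1.4 CPM. The median log2 ratio of those 7 was 0.19. In fibroblast-like cells 1 of 6 was 2-fold apart, where 3.3% of 8216 genes were. It was Eno1, a glycolytic enzyme that also binds plasminogen, lower at 137 against 311 CPM. In macrophage-like cells none of 5 was, where 2.97% of 8640 genes were. Counts this small say little beyond the values.

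**Figure D5:**
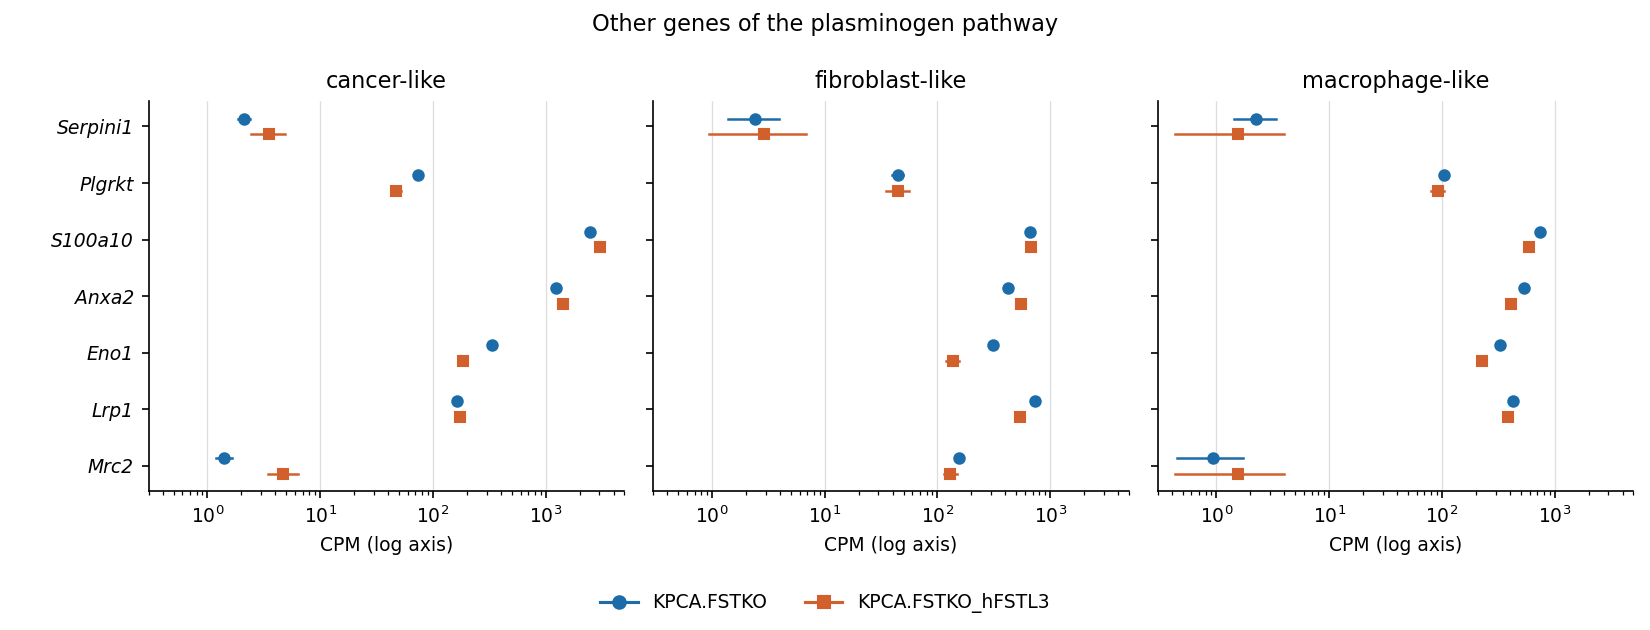
CPM (log axis) of the 7 pathway genes with at least 100 UMIs in the cancer-like comparison, in cancer-like, fibroblast-like and macrophage-like barcodes, with KPCA.FSTKO as circles and KPCA.FSTKO_hFSTL3 as squares and 95% Poisson intervals as bars. S100a10 and Anxa2 are highest in cancer-like barcodes and Lrp1 and Mrc2 in fibroblast-like ones.

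Genes with the most similar pattern were looked for over the 10 combinations of class and library with at least 50 barcodes, 7 of them from KPCA.FSTKO, by Pearson's r of log2(CPM + 1) against 12082 genes with at least 500 UMIs. The points share libraries and, within them, depth, so r is a description. Nearest to Plau were Tgfbr1 (0.97), Rcan1 (0.96) and Entpd7 (0.95). Nearest to Plat were Gm6093 (0.97), Lhfp (0.97) and Ptprn (0.96), and nearest to Plaur were Gm13986 (0.97), Mmp9 (0.95), a gene of the neutrophil gate, and Sh2b2 (0.95). Serpine2 was nearest to Aplp1 (0.97), Ptprf (0.96) and Itm2a (0.96). Serpinb2 was nearest to the chemokine gene Cxcl1 (0.95), Dram1 (0.94) and Nuak1 (0.94).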

How the data were processed

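Both libraries came from tumors dissociated and run on a 10x Genomics droplet kit that reads the 3′ end of transcripts. The authors aligned reads to mm10 with Cell Ranger, version 3.1.0 in the methods and 7.2.0 in the file headers, and deposited raw UMI counts per gene and called barcode, not normalized. The 7582 and 4244 deposited barcodes equal the cell numbers in the methods, where they are given as after quality control, and the stated filters (mitochondrial share under 20%, more than 200 and fewer than 8000 genes) leave 6777 and 4041. No doublet step is named, and no caller was run here.

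Each barcode was gated by the UMIs of 12 marker lists per 10000 UMIs, with a minimum and 2 to 4 markers found for its own class and a limit for unrelated classes. Thresholds were set after the marker scores were seen, and members and lists were chosen with earlier results of these data known. Among the 10 genes with the largest fold of each gate of at least 10 barcodes, no other list had more markers than its own, but for the cancer-like and fibroblast-like gates of both libraries, and the endothelial-like gate of KPCA.FSTKO, those genes held no marker of any list, so the check says nothing about them. A class cut from such a score is a range of cells and not a type.

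UMIs were summed per class and scaled to 1000000 UMIs of that class (CPM), with exact Poisson intervals. Shares have Clopper-Pearson and ratios conditional binomial intervals, all at 95% and for counting error only. A count of 0 was set against 3 counts. Thinning drew 1000 UMIs per barcode. Genes named are all members, the genes of the fixed pathway list other than 1 item that is not reported here, and the 3 genes nearest each member, and the genes used for splits lie outside that rule and were chosen after values were seen. Intervals came from scipy 1.17.1, sums from numpy 2.4.6 with pandas 2.3.3, and plots from matplotlib 3.10.9, all under Python 3.11.15, with TMM scaling from edgeR 4.0.16 in R 4.3.3 as an alternative. The interval and size rules were run on simulated Poisson counts. Those counts lack the clumping of UMIs in single barcodes seen here, so the run does not show how the intervals hold for clumped genes.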

Additional observations from a re-analysis of the deposited data

Results flagged for a closer look

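For Plaur and Serpinb2 the ratio of KPCA.FSTKO_hFSTL3 over KPCA.FSTKO had opposite signs in different cell classes, with counting intervals on either side of no change, and the difference between classes was not tested. The log2 ratio of Plaur was 0.71 in cancer-like, 0.64 in fibroblast-like and -0.27 in macrophage-like barcodes. The log2 ratio of Serpinb2 was -3.19 in cancer-like, 1.30 in fibroblast-like and 0.85 in macrophage-like barcodes. Without the top barcode of each library the value of Serpinb2 was -0.082 in fibroblast-like and -0.16 in macrophage-like barcodes, so its higher values in these classes rested on 1 barcode each.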

How the results depend on the processing

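Of 73 recomputed values of the main results 50 stayed within the counting interval or, for a count, within 1.5 times. All ratios here are log2 ratios. In those of KPCA.FSTKO_hFSTL3 over KPCA.FSTKO in cancer-like cells, Plaur gave 0.87 with no filter on barcodes, 0.44 with every barcode weighted equally and 0.62 with TMM scaling, and Plat gave -1.35 with every barcode weighted equally. Serpine2 gave -0.74 with stricter gates, 1.94 with looser gates, 1.53 with every barcode weighted equally and 2.52 with barcodes of several gates counted as cancer-like, where Serpinb2 gave -0.79. In the ratios of the highest other class of at least 50 barcodes over cancer-like cells of KPCA.FSTKO, stricter gates gave 3.39 for Plau, 2.71 for Plat, 8.37 for Serpine2 and 2.08 for Serpinb2. Looser gates gave 2.39 for Plat, 7.55 for Serpine2 and 2.66 for Serpinb2. Without the 5% of barcodes with most UMIs Plau gave 3.91, Plat 2.68 and Serpinb2 1.21, and with every barcode weighted equally Plau gave 2.67 and Serpine2 6.70. Barcodes of several gates counted as cancer-like gave 5.93 for Serpine2. At a 1.5-fold size 5 members in place of 3 were past it in cancer-like cells, with Plaur and Serpine2 higher and the others lower. The share of all genes past 1.5-fold is not given, so this count cannot be read as a result about the members. Leaving out the top 5% gave no value for 4 results in which 1 class then held 0 UMIs. Without the top barcode, an alternative chosen after seeing the data, Serpinb2 in fibroblast-like cells gave a ratio of the libraries of -0.082 and in macrophage-like cells one of -0.16. The cause of these moves was not tested. No paired analysis was possible because each line has 1 library. The 15 Serpinb2 and 19 Plau UMIs in cancer-like cells of KPCA.FSTKO_hFSTL3 limit those ratios.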

Other observations

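Further splits of the cancer-like barcodes, chosen after values were seen, gave further values for urokinase, its receptor and Serpinb2. Over Lbp, a gene of acute phase and lipopolysaccharide binding, Plau had a ratio of high over low of 3.90 (3.05 to 4.99) in KPCA.FSTKO, against 3.38 (1.23 to 9.40) in the other library, and Plaur had ratios of 0.528 (0.497 to 0.560) and 0.612 (0.527 to 0.708). Over Areg, which encodes an EGF receptor ligand, Plaur had ratios of 2.11 (2.01 to 2.22) and 2.93 (2.52 to 3.42). Plau over Areg had a ratio of 0.448 (0.343 to 0.578) in KPCA.FSTKO and one of 1.04 (0.330 to 3.37) in KPCA.FSTKO_hFSTL3, there on 8 and 7 UMIs. Over Top2a Plaur had ratios of 1.24 (1.18 to 1.30) and 1.36 (1.19 to 1.56). In KPCA.FSTKO Plau had one of 0.789 (0.611 to 1.01) on that split and Serpinb2 one of 1.17 (1.03 to 1.33). Over Fosl1, which encodes an AP-1 subunit, Plaur had ratios of 1.71 (1.63 to 1.80) and 2.69 (2.29 to 3.16), and Serpinb2 one of 2.29 (2.02 to 2.60) in KPCA.FSTKO on 656 and 412 UMIs, with 7 and 2 UMIs in KPCA.FSTKO_hFSTL3.

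In macrophage-like barcodes Plaur was lower where Folr2, a gene of resident-type macrophages, was high, with ratios of 0.671 (0.620 to 0.726) and 0.571 (0.463 to 0.699), and higher where Il1b was high, with ratios of 1.42 (1.32 to 1.52) and 1.5 (1.30 to 1.73). Serpinb2 over Folr2 had a ratio of 1.54 (1.09 to 2.15) in KPCA.FSTKO, with 1 and 10 UMIs in KPCA.FSTKO_hFSTL3. Over Il1b its ratio was 0.660 (0.419 to 1.00) in KPCA.FSTKO, with 2 and 78 UMIs in KPCA.FSTKO_hFSTL3. Serpinb2 over Arg1 had a ratio of 0.908 (0.547 to 1.48) in KPCA.FSTKO, against 30.3 (9.85 to 151) in the other library, where 46 of the 81 UMIs of the class lay in 1 barcode.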
